A study of Mus musculus with 2 samples.

Results

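Sox6, Procr, F3, Ptprr, Plau, Glp2r and Ednrb were followed through the stroma of the mouse colon and small intestine as a set of 7 genes, all listed in both libraries, out of 16098 genes listed in both. They were chosen by their levels in the annotated types and their pairwise correlations, since in earlier results of these data Sox6 and Procr appeared to run opposite to Ptprr, Plau, Glp2r and Ednrb among subepithelial myofibroblasts (SEMFs), with F3 as a companion of the former. The levels and the correlations among these 7 genes are thus the values that selected them and are given as descriptions without a test. Single-cell RNA sequencing had been run on stromal cells of the healthy, untreated mouse gut, with 1 colon library and 1 small intestinal library. Live cells negative for CD45 (an immune marker) and CD326 (EpCAM, an epithelial marker) were sorted after 60 min of digestion of the colon and 45 min of that of the small intestine, and about 16000 cells per library were loaded fresh. How many animals were used, and their strain, age and sex, are not given in the labels. Each tissue has 1 library, so no difference has a replicate check and all intervals cover counting error only.

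SEMFs are fibroblast-like cells that lie directly beneath the gut epithelium, carry much of the PDGF receptor alpha (Pdgfra), and are known as a source of BMP ligands and non-canonical Wnt ligands for the epithelium. Among the 7 genes, Sox6 encodes a transcription factor of the SoxD group, and Procr and F3 encode cell surface proteins of the coagulation system, the endothelial protein C receptor and tissue factor, which respectively help to restrain and start clotting. Plau encodes urokinase, the secreted protease that turns plasminogen into plasmin. Glp2r and Ednrb encode receptors for the gut hormone glucagon-like peptide 2 and for endothelins, and Ptprr encodes a receptor-type tyrosine phosphatase that acts on MAP kinases.

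The colon library held 6018 annotated cells with a median of 6598 UMIs (unique molecular identifiers, each marking 1 captured RNA molecule) and the small intestinal library 9359 cells with a median of 5943 UMIs. The libraries shared 21 cell barcodes, 0.349% of those of the colon. Levels are given as CPM, the UMIs of a gene scaled to 1000000 UMIs of all cells of a type, with exact Poisson 95% intervals, for the 6 annotated types that reached 50 cells in both libraries. These are SEMFs, CD81- fibroblasts (CD81- FBs), CD81+ trophocytes (fibroblasts of the deeper submucosa), smooth muscle cells (SMCs), lymphatic endothelial cells (LECs) and blood endothelial cells (BECs). There were 1105 SEMFs in the colon with 7436577 UMIs (median 6345 per cell) and 1109 in the small intestine with 6522861 UMIs (median 5510 per cell).

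The SEMF label was checked against 8 marker genes. Of these, 7 had their highest level of the 6 types in SEMFs in each library, the exception being Dll1, a Notch ligand. Pdgfra reached 1137 CPM in colon SEMFs and at most 330 CPM in any other colon type, and 2778 CPM in small intestinal SEMFs against at most 376 CPM elsewhere. Endothelial markers were low in SEMFs, with Pecam1 (endothelium) at 3.23 CPM for colon and 2.61 CPM for small intestinal cells, and Lyve1 (lymphatic endothelium) at 1.61 and 9.35 CPM. The summed level of the 6 smooth muscle markers was higher in SEMFs, at 2628 CPM in the colon library and 4896 CPM in the other, against 22182 and 14808 CPM in SMCs. The 5 CD81- fibroblast markers summed to 7325 CPM in colon SEMFs, against 10303 CPM in CD81- FBs, and to 3640 against 11749 CPM in the small intestine, so SEMFs shared much of that list. Pericyte markers summed to 256 and 1365 CPM in SEMFs, and 4 of 6 were highest in SEMFs in the small intestine.

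The genes lie on separate chromosomes of the mouse genome build GRCm38.p6 (mm10), except Plau and Ednrb, which share chromosome 14. Sox6 spans chr7:115470872-116040776 on the minus strand, Procr chr2:155751125-155755478, F3 chr3:121723537-121735052 and Ptprr chr10:116018188-116274932, each on the plus strand. Glp2r (chr11:67664156-67771184) and Ednrb (chr14:103814615-103844508) are on the minus strand, and Plau spans chr14:20836662-20843388. The RefSeq promoter table for this build held 14 start windows for 6 of the 7 genes. The stretches in front of Ptprr and Glp2r are shown because these genes moved together in colon SEMFs. Those of Procr and F3 are shown because they hold a match to the AP-1 motif, the recognition sequence of Fos and Jun. Fos and Jun belong to the immediate early and heat shock list whose summed level is given below. Whether they act on Procr or F3 was not tested. Each stretch is the piece of the 250 bases before a start that lies outside the annotated gene. It is written 5′ to 3′ on the strand of the gene, with an AP-1 match in capitals.
Procr, chr2:155750967-155751116, plus strand: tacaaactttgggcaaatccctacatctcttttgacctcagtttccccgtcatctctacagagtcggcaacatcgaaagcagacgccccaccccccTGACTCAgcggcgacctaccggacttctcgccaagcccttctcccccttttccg
F3, chr3:121723287-121723536, plus strand: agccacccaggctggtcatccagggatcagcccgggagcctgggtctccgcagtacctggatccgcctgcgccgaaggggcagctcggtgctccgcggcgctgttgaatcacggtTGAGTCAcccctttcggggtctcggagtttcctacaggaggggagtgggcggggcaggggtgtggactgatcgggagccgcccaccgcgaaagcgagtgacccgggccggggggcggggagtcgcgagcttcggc
Ptprr, chr10:116018113-116018187, plus strand: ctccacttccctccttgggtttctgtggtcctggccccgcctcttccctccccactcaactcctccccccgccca
Glp2r, chr11:67771185-67771403, minus strand: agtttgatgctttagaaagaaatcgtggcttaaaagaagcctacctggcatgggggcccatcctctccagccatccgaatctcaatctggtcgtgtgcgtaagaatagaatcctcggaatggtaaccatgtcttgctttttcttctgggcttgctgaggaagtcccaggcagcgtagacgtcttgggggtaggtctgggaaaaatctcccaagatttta
The AP-1 letters searched were TGACTCA and, for the other strand, TGAGTCA, and 4.46% of the 32851 RefSeq windows of 250 bases held them. The F3 stretch also overlaps an exon of Gm43823, a separate annotated gene. The SOX letters AACAAT, present in 9.42% of all windows on either strand, were found in 1 of the 14 windows, at an internal start of Sox6. The forkhead letters TGTTTAC (3.17% of all windows) were found in a Ptprr window, and the SMAD letters GTCTGG (14.7% of all windows) in those of Glp2r and Ednrb. The TATA letters TATAAA (12.4% of all windows) were found in a Sox6 window and the SP1 letters GGGGCGGGG (10.4%) in that of F3. The GLI letters GACCACCCA (0.225%) were in 0 of the 14. A match is a description of the letters and not a shown binding site.

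Sox6 was the gene most restricted to SEMFs by its share of UMIs. In the colon, SEMFs gave 92.9% of all Sox6 UMIs of the 6 types while making up 18.4% of the cells of these types. In the small intestine they gave 97.0% from 11.9% of the cells. The Sox6 level in SEMFs was 1462 CPM (1434 to 1489) in the colon and 3519 CPM (3474 to 3565) in the other library, with a UMI in 91.3% and 99.0% of the cells. Trophocytes, which can serve as a low reference, had a Sox6 UMI in 5.03% of colon and 3.19% of small intestinal cells at median depths of 7186 and 7807 UMIs. SMCs came next in the colon with 113 CPM, followed by LECs (38.5), CD81- FBs (26.5), BECs (11.1, from 3 UMIs) and trophocytes (8.01). The intervals of LECs and CD81- FBs overlapped, and that of BECs overlapped all 3 of LECs, CD81- FBs and trophocytes. Among small intestinal types BECs (26.9 CPM), SMCs (25.7) and LECs (22.5) had overlapping intervals, as did CD81- FBs (9.82) and trophocytes (8.98).

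Procr, the protein C receptor, was a SEMF gene in the colon but not to the same degree in the small intestine. Its level in colon SEMFs was 626 CPM (608 to 644), with a UMI in 87.4% of cells, against 24.6 CPM in SMCs, 16.9 in LECs, 16.1 in CD81- FBs, 14.8 in BECs and 6.60 in trophocytes. The intervals of SMCs, LECs, CD81- FBs and BECs overlapped. Small intestinal BECs had the highest Procr level of that tissue, 245 CPM (225 to 267), and SEMFs were second with 125 CPM (116 to 134) and a UMI in 42.5% of cells. SMCs (17.1 CPM), CD81- FBs (10.9), LECs (4.02) and trophocytes (3.26) followed, with overlap only between the last pair. The colon BEC value rests on 4 UMIs in 53 cells, with an interval of 4.04 to 38.0 CPM that lies below that of small intestinal BECs.

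F3, tissue factor, had its highest level in SEMFs of both tissues and the broadest spread over other fibroblasts. Colon SEMFs reached 630 CPM (612 to 649) and small intestinal SEMFs 265 CPM (252 to 278), with a UMI in 90.6% and 62.9% of cells. Trophocytes came second at 111 CPM (colon) and 96.3 CPM (small intestine). Next in the colon were CD81- FBs (53.3 CPM) and SMCs (51.8), whose intervals overlapped, and LECs (22.5) and BECs (11.1), whose intervals also overlapped. The small intestinal order was SMCs (60.6 CPM), CD81- FBs (27.5), LECs (3.57) and BECs (0.456, from 1 UMI), without overlap. SEMFs therefore held a smaller share of the F3 UMIs, 69.2% in the colon and 43.8% in the small intestine.

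Ptprr, the MAP kinase phosphatase, was highest in BECs of both tissues, at 204 CPM (154 to 265) in colon cells and 294 CPM (272 to 318) in small intestinal ones. Colon SEMFs followed with 68.4 CPM (62.6 to 74.7) from 509 UMIs in 17.0% of cells, ahead of SMCs (23.3 CPM) and CD81- FBs (3.40 CPM). Colon trophocytes had 1 Ptprr UMI in 875 cells, and colon LECs had 0 of 217 cells with a UMI, which allows a share of cells with a UMI of up to 1.38% by 3 counts of the total, or 1.69% by the exact binomial limit. In small intestinal SEMFs only 14 Ptprr UMIs were counted, in 3 of 1109 cells (0.271%), 8 of them in 1 cell. This level of 2.15 CPM (1.17 to 3.60) overlapped that of CD81- FBs (4.37 CPM) and lay below that of SMCs (11.05 CPM). The share of cells with a UMI was near that of trophocytes (0.105%), whose binomial interval overlapped, and is read as background. The level lay above the 0.133 CPM (0.0161 to 0.481) of trophocytes, a difference that rests on these 3 cells.

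Plau, urokinase, was shared between SEMFs and other types in the colon and was a lymphatic gene in the small intestine. Colon SEMFs had 72.1 CPM (66.1 to 78.4) with a UMI in 21.0% of cells, and the interval overlapped that of SMCs (53.1 CPM, 38.1 to 72.0). LECs (43.2 CPM), BECs (14.8, from 4 UMIs), trophocytes (8.64) and CD81- FBs (3.93) followed. LECs led in the small intestine with 35.2 CPM (31.9 to 38.9), close to the colon LEC level. Small intestinal SEMFs had 19 Plau UMIs in 1.44% of cells, or 2.91 CPM (1.75 to 4.55), which overlapped BECs (3.19 CPM) and trophocytes (1.26 CPM) and is likewise read as background. Plau was lowest there in SMCs (0.356 CPM, 1 UMI) and CD81- FBs (0.198 CPM, 4 UMIs).

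Glp2r, the GLP-2 receptor, was the least abundant of the 4 in colon SEMFs by count and was highest in SEMFs of both tissues. In the colon the SEMF level was 58.5 CPM (53.1 to 64.3), with a UMI in 26.9% of cells, and the other 5 types lay between 1.88 and 3.88 CPM with overlapping intervals. In the small intestine SEMFs had 11.96 CPM (9.45 to 14.9) from 78 UMIs in 5.95% of cells, and the other types lay between 1.16 and 2.00 CPM, again overlapping. LECs, with no clear Glp2r signal, had a UMI in 0.922% (colon) and 0.520% (small intestine) of cells at median depths of 4545 and 4118 UMIs.

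Ednrb, the endothelin B receptor, was a SEMF gene in both tissues, at 225 CPM (215 to 236) in colon cells and 669 CPM (649 to 689) in small intestinal ones. A UMI was present in 58.6% and 79.1% of SEMFs. SMCs and LECs came next with overlapping intervals, at 66.0 and 56.3 CPM among colon types and 90.2 and 80.8 CPM among small intestinal types. BECs had 29.7 and 46.5 CPM, CD81- FBs 3.32 and 11.9 CPM, and trophocytes 1.57 and 2.33 CPM. The BEC interval overlapped those of LECs and SMCs in the colon only, where 53 BECs had been annotated.

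Counted over the set, 6 of the 7 genes had their highest level in SEMFs in the colon, all but Ptprr, and 4 of the 7 in the small intestine (Sox6, F3, Glp2r and Ednrb). Among all genes with at least 100 UMIs, 18.5% in the colon and 32.8% in the small intestine were highest in SEMFs. With every cell thinned to 2000 UMIs, the share of colon SEMFs with a UMI was 79.7% for Sox6, 62.2% for Procr, 66.8% for F3, 31.0% for Ednrb, 9.49% for Glp2r, 8.94% for Ptprr and 8.49% for Plau. At the same depth the small intestinal SEMFs gave 96.8% for Sox6, 21.7% for Procr, 35.7% for F3, 56.5% for Ednrb, 1.95% for Glp2r, 0.185% for Ptprr and 0.649% for Plau. Thinning left out 9 colon SEMFs and 30 small intestinal SEMFs with fewer UMIs.

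**Figure D1:**
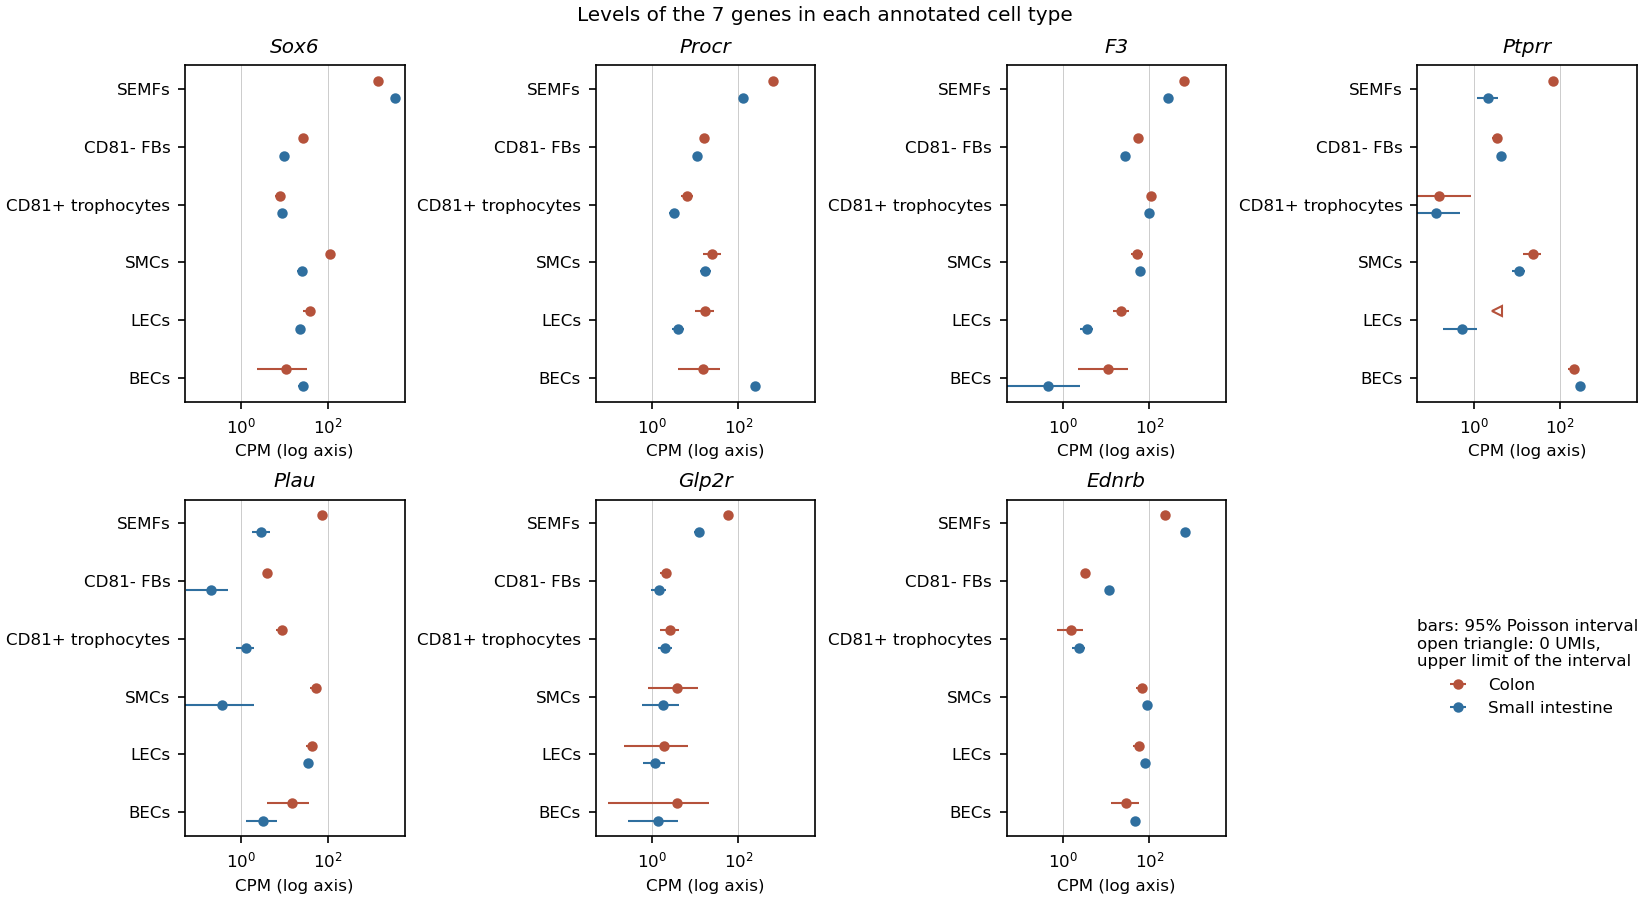
CPM of each gene (horizontal log axis) in the 6 annotated cell types, with colon in red and small intestine in blue, bars for exact Poisson 95% intervals, and an open triangle at the upper limit where no UMI was counted. Sox6 stands highest in SEMFs of both tissues (1462 and 3519 CPM), Ptprr in BECs (204 and 294 CPM), and the SEMF level of Plau is 72.1 CPM in colon against 2.91 CPM in small intestine.

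SEMFs of the 2 tissues differed in all 7 genes by over 2-fold, with 5 higher in the colon and 2 higher in the small intestine. Of 10001 genes with at least 100 UMIs in the SEMFs of both libraries together, 5.36% were over 2-fold higher in the colon and 15.1% over 2-fold higher in the small intestine, and the median gene had a log2 ratio of colon to small intestine of -0.33. The largest log2 ratios were those of Ptprr, 5.00 (4.24 to 5.88), and Plau, 4.63 (3.97 to 5.37). Without the cell with the most Ptprr UMIs in each library, the Ptprr ratio was 6.18. Procr (2.33, interval 2.22 to 2.44), Glp2r (2.29, 1.94 to 2.66) and F3 (1.25, 1.17 to 1.33) were also higher in the colon. Sox6 had a log2 ratio of -1.27 (-1.30 to -1.23) and Ednrb one of -1.57 (-1.65 to -1.49), both higher in the small intestine. Relative to the median gene the log2 ratio of Sox6 was -0.93, under 2-fold, and that of Ednrb -1.24. The genes thus did not split between the tissues as Sox6 and Procr on the one side and the other 4 on the other, since Procr was colon-high with Ptprr, Plau and Glp2r while Ednrb was low in the colon with Sox6. In SEMFs the summed level of 11 immediate early and heat shock genes, which tissue digestion is known to induce, was 8566 CPM (colon) and 2651 CPM (small intestine), and digestion time differed between the libraries. The part of either in these ratios was not tested.

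Outside SEMFs the tissue ratios of the same genes took other values. The log2 ratio of Plau was 4.31 (2.90 to 6.21) in CD81- FBs and 2.77 (2.00 to 3.61) in trophocytes, but 0.29 (-0.18 to 0.74) in LECs. In SMCs it was 7.22 (4.66 to 12.6), on 41 colon UMIs and 1 small intestinal UMI. In BECs it was 2.22 on 4 and 7 UMIs, with an interval that reached below 0. Ednrb was lower in the colon also in CD81- FBs (-1.84, -2.22 to -1.47), LECs (-0.52, -0.92 to -0.14) and SMCs (-0.45, -0.91 to -0.01). F3 had a ratio of 0.96 (0.81 to 1.10) in CD81- FBs, 0.20 (0.07 to 0.33) in trophocytes and 2.66 (1.86 to 3.42) in LECs. Ptprr in BECs had a ratio of -0.53 (-0.95 to -0.13), a direction opposite to that in SEMFs. These differences between types were not tested.

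Within the colon SEMFs, Ptprr, Plau, Glp2r and Ednrb went up and down together from cell to cell, and Sox6 ran opposite to all 4, whereas Procr and F3 did neither. Correlations are Pearson's r of the natural log of 1 plus UMIs per 10000 UMIs of the cell, across the 1105 SEMFs of 1 library, whose cells share dissociation, capture and sequencing and are not replicates. The 6 correlations among Ptprr, Plau, Glp2r and Ednrb ran from 0.239 to 0.495 with a median of 0.293, or 0.164 with every cell thinned to 3000 UMIs. The highest was that of Ptprr with Plau (0.495), followed by Ptprr with Glp2r (0.416) and Plau with Glp2r (0.335). The 3 correlations of Ednrb were lower, at 0.251 with Ptprr, 0.241 with Plau and 0.239 with Glp2r. Of the 6987 genes with a UMI in at least 10% of colon SEMFs, 7.79% reached an r of 0.1 with Ptprr, 7.86% with Plau, 5.87% with Glp2r and 3.94% with Ednrb.

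Sox6 had an r of -0.384 with Ptprr, -0.330 with Plau, -0.215 with Glp2r and -0.156 with Ednrb. An r of -0.1 or lower with Sox6 was found for these 4 of 4 and for 5.68% of the 6987 genes. Only 9 of those genes had a lower r with Sox6 than Ptprr had, and 12 a lower r than Plau, against 92 for Glp2r and 216 for Ednrb. The r of Procr with the same 4 genes was -0.043, -0.032, 0.040 and 0.027, a count of 0 of 4 at -0.1 or lower where 1.09% of all genes were that low. Scored only as having a UMI or not, the median r of Sox6 with the 4 genes was -0.139 in place of -0.273. F3 stood equally apart, with r between -0.036 and 0.045 with the 4 genes, 0.080 with Sox6 and 0.166 with Procr. The positive r of Sox6 with Procr was 0.112, where 13.2% of all genes reached 0.1 with Sox6 and 4.75% with Procr. For F3, whose r with Procr is given above, 0.902% did. These correlations are among the values that selected the genes and so do not bear on whether the set separates 2 SEMF states, but those of Procr and F3 with the 4 genes did not have the opposition that the choice had assumed.

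Small intestinal SEMFs had no correlation of that size below 0. The 8 correlations of Sox6 and Procr with Ptprr, Plau, Glp2r and Ednrb ran from -0.041 to 0.146 with a median of 0.044, and 0 of 8 were at -0.1 or lower, where 6.91% of 7390 genes were so with Sox6 and 0.122% with Procr. Sox6 had an r of -0.041 with Ptprr, 0.007 with Plau, 0.037 with Glp2r and 0.061 with Ednrb. With Ptprr in 3 cells and Plau in 16, an opposition of these 2 genes to Sox6 was not detectable at such low counts. Ednrb, in 79.1% of cells, did not have that limit. Glp2r and Ednrb had a positive r of 0.209 (0.104 when thinned), the highest that Glp2r had with any of 7391 genes, of which 0.744% reached 0.1. The r of Procr with Ednrb was 0.146, where 0.338% of genes reached 0.1 with Procr. Sox6 and Procr had an r of -0.045 with each other. The r of 0.165 between Ptprr and Glp2r rests on the 3 cells with Ptprr UMIs, 2 of which also had Glp2r.

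**Figure D2:**
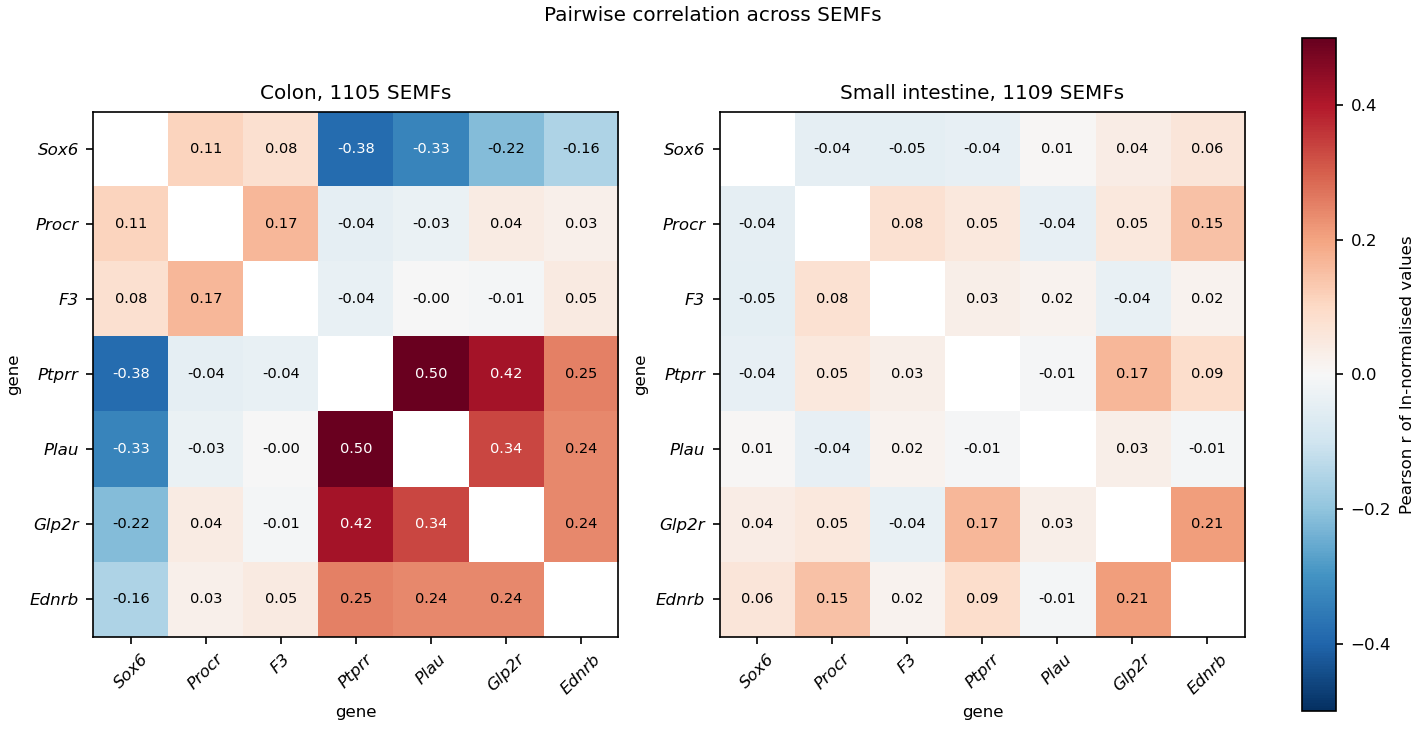
Pearson r of ln-normalised values for every pair of the 7 genes across 1105 colon SEMFs (left) and 1109 small intestinal SEMFs (right), on a common colour scale from -0.5 (blue) to 0.5 (red). The colon panel has a red block of Ptprr, Plau, Glp2r and Ednrb (0.239 to 0.495) and a blue Sox6 row (-0.384 to -0.156), while the Procr and F3 rows are pale, and the small intestinal panel has neither block nor row.

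The shared cells behind these correlations can be counted directly. Of the 188 colon SEMFs with a Ptprr UMI, 61.7% (54.3 to 68.7, exact Clopper-Pearson 95% interval) also had a Plau UMI, against 12.6% (10.6 to 14.98) of the 917 cells without Ptprr. Glp2r was present in 67.6% of the cells with Ptprr and 18.5% of those without, and Ednrb in 84.0% and 53.4%. Sox6 was present in 78.2% (71.6 to 83.9) of the cells with Ptprr and 94.0% (92.3 to 95.5) of those without, so most cells with Ptprr still had Sox6 UMIs. Procr was present in 91.5% and 86.6%, and F3 in 88.8% and 90.9%. Cells with a Ptprr UMI were deeper, with a median of 7320 UMIs against 6142, which by itself raises the share with a UMI of any gene.

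Colon SEMFs were next ordered by how many of Ptprr, Plau, Glp2r and Ednrb had at least 1 UMI. None of the 4 was seen in 366 cells, 1 in 375, 2 in 174, 3 in 118 and all 4 in 72. Along this order the Sox6 level was 1764, 1667, 1432, 798 and 637 CPM, so it was lower by a factor of more than 2 at the far end, with the interval of 577 to 702 CPM below the 1709 to 1821 CPM of cells with none. The median depth rose along the same order from 5589 to 7993 UMIs. With every cell thinned to 3000 UMIs, the Sox6 level was 1663, 1402, 1076, 514 and 548 CPM, over 508, 352, 140, 46 and 14 cells. At full depth Procr ran from 653 CPM in cells with none to 536 CPM in cells with all 4, and F3 from 652 to 579 CPM. When thinned, Procr was at 640 CPM (601 to 682) with none and 643 CPM (424 to 935) with all 4. F3 was then at 619 CPM (580 to 660) and 738 CPM (502 to 1048). In thinned cells with 3 or 4 of the genes, Procr was at 500 CPM (402 to 615) and F3 at 733 CPM (614 to 870). Among small intestinal SEMFs 0 cells had all 4 genes and 4 cells had 3. The Sox6 level of cells with 0, 1 and 2 of the genes was 3070, 3620 and 3618 CPM. Median depth rose along these groups from 4219 to 6740 UMIs. With every cell thinned to 3000 UMIs the level was 3437, 3495 and 3404 CPM, with overlapping intervals. In the 4 cells with 3 genes the unthinned level was lower, at 2111 CPM (1622 to 2701).

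Ordering the colon SEMFs by Sox6 instead gave the same picture from the other side. In 4 groups of 276 or 277 cells, from the lowest to the highest Sox6 level per UMI, the Ptprr level was 190, 64.7, 18.1 and 9.98 CPM and the Plau level 170, 65.9, 32.5 and 26.9 CPM. Glp2r was at 99.6, 64.7, 38.9 and 34.4 CPM and Ednrb at 287, 241, 223 and 159 CPM. The share of cells with a Ptprr UMI was 39.0, 16.3, 7.25 and 5.43%, at median depths between 5987 and 6810 UMIs. Procr ran the other way by less, at 520, 610, 703 and 663 CPM, and F3 was at 602, 607, 615 and 690 CPM. In small intestinal SEMFs Ednrb was at 736, 706, 594 and 653 CPM over the same 4 groups, Glp2r at 9.95, 11.9, 13.4 and 12.2 CPM with overlapping intervals, and Procr at 143, 123, 128 and 108 CPM.

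**Figure D3:**
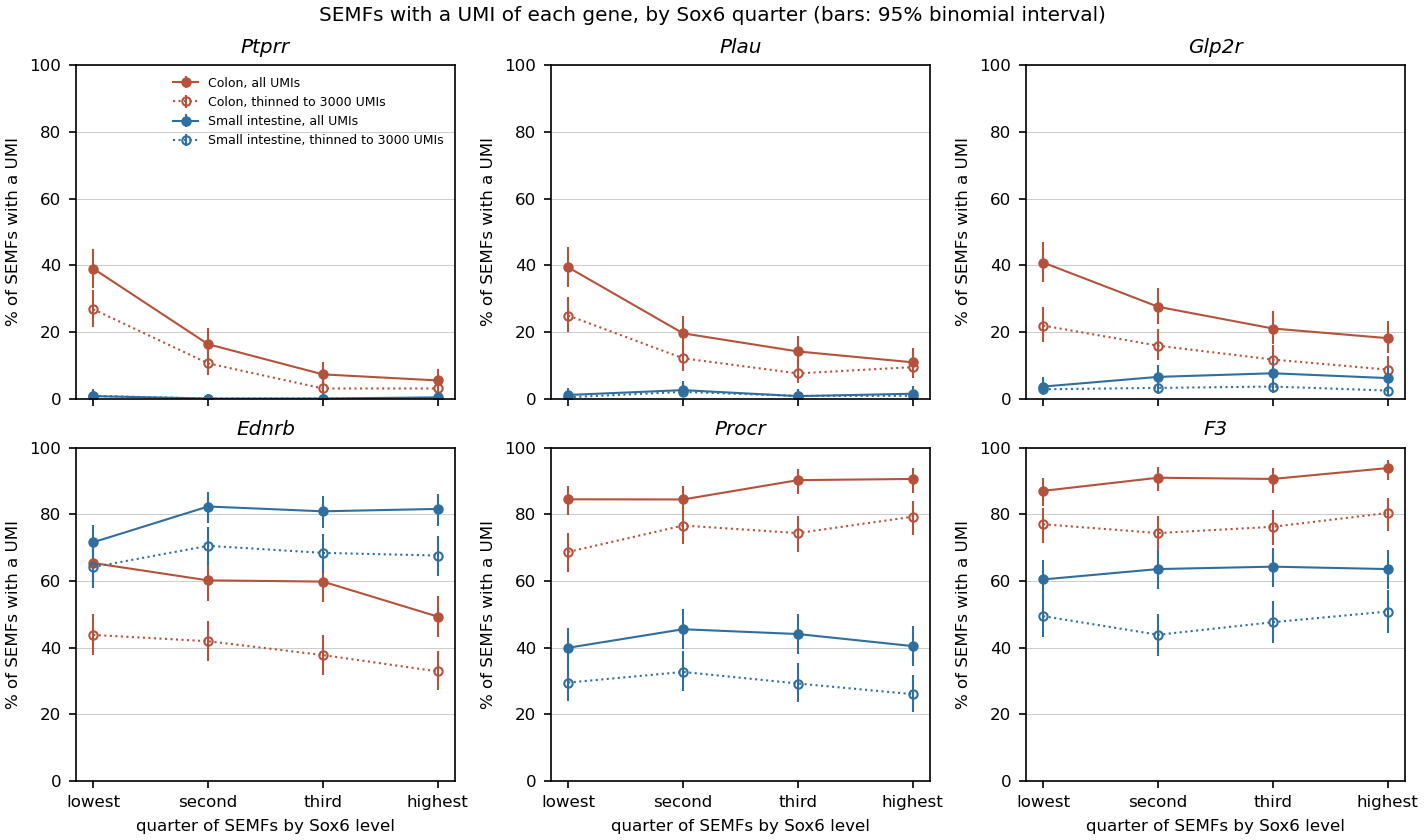
Share of SEMFs with a UMI (vertical axis, percent) of each gene in 4 equal groups of cells from lowest to highest Sox6 level, for colon (red) and small intestine (blue), at full depth (filled points) and thinned to 3000 UMIs per cell (open points), with exact binomial 95% intervals. Ptprr falls from 39.0 to 5.43% of colon SEMFs, and the small intestinal shares of Ptprr stay under 1%.

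Some colon SEMFs had Xist and no Y-linked UMIs (520 cells) and others Y-linked and no Xist UMIs (323 cells), so the library held cells of both sexes. The opposition of Sox6 to the 4 genes was present in each group, with a median r of -0.310 in the former and -0.346 in the latter, and the 4 genes had a median r among themselves of 0.294 and 0.300. The levels differed between these cells by less than between the tissues. Sox6 was at 1372 and 1659 CPM, Procr at 682 and 588 CPM, F3 at 703 and 556 CPM and Ednrb at 245 and 201 CPM. The intervals of Ptprr (63.6 and 77.8 CPM), Plau (70.8 and 85.2 CPM) and Glp2r (59.7 and 60.4 CPM) overlapped. F3 was the exception to the likeness of the groups, with an r of 0.102 with Ptprr and 0.115 with Plau among the former cells and of -0.150 and -0.174 among the latter. The r of F3 near 0 over all colon SEMFs thus joined values of opposite sign, and this difference was not tested. Xist was not analysed for the small intestine.

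To see whether the 7 genes followed the variation of other genes, the SEMFs of each tissue were divided into 2 parts by k-means clustering on the 1000 most variable genes without the 7. In the colon this gave a smaller part of 235 cells (21.3%) and a larger part of 870 cells, with median depths of 7071 and 6095 UMIs. The smaller part had 255 CPM of Ptprr (232 to 279) against 10.4 CPM (7.92 to 13.4) in the larger, 239 against 20.1 CPM of Plau, 142 against 32.6 CPM of Glp2r and 363 against 183 CPM of Ednrb. Sox6 was at 656 CPM (619 to 695) in the smaller and 1713 CPM (1679 to 1747) in the larger part. As log2 ratios of smaller to larger part these were 4.61 for Ptprr, 3.57 for Plau, 2.12 for Glp2r, 0.99 for Ednrb and -1.38 for Sox6. Procr had a ratio of -0.50 (476 against 673 CPM) and F3 one of -0.03 (-0.12 to 0.07), with 622 against 633 CPM. Thus 4 of the 7 genes differed by over 2-fold between the parts, 3 higher and 1 lower in the smaller part, and Ednrb by 1.99-fold. Of 7771 other genes, which include those that formed the parts, 4.86% were over 2-fold higher and 4.29% over 2-fold lower in the smaller part. The 7 genes had been chosen by their correlations in these same cells, and genes that vary with them could help to form the parts. These counts therefore describe the cells and are not an independent check of the set. In the smaller part 62.1% of cells had a Ptprr UMI, 64.7% a Plau UMI and 63.0% a Glp2r UMI, against 4.83, 9.20 and 17.1% in the larger.

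Other genes moved with these colon parts. The 11 immediate early and heat shock genes were 11 of 11 higher in the smaller part, with a summed level of 17834 CPM against 5680 CPM. With these, mitochondrial, ribosomal and sex-linked genes left out of the clustering, 98.6% of cells were placed as before. Given the immediate early level of each cell, an alternative added after the data had been seen, Sox6 had a median partial r of -0.240 with the 4 genes, and the 4 genes one of 0.257 among themselves. The 6 smooth muscle markers were 0 of 6 higher in the smaller part, with 433 against 3312 CPM, of which Acta2 made up 316 and 1771 CPM and Tagln 65.7 and 1448 CPM. The 7 blood endothelial markers were 7 of 7 higher, with 257 against 93.5 CPM where BECs had 9445 CPM. Ly6c1 gave 215 CPM of this sum in the smaller part and 77.4 CPM in the larger. Plvap was at 18.7 and 7.05 CPM, Flt1 at 7.93 and 3.17 CPM and Emcn at 6.23 and 1.23 CPM. Pecam1 was at 4.53 and 2.82 CPM, Kdr at 2.83 and 0.88 CPM and Cdh5 at 2.26 and 0.88 CPM. A UMI of any of these markers was present in 67.7% of cells of the smaller part and 27.7% of the larger. Trophocyte markers were 3 of 7 higher, at 61.7 against 18.7 CPM where trophocytes had 3072 CPM, and CD81- fibroblast markers 2 of 5, at 4937 against 8069 CPM. Of the 8 SEMF markers 4 were higher, at a summed 3266 against 3320 CPM, and Pdgfra was at 1098 and 1149 CPM. Mitochondrial genes gave a median of 3.19 and 3.55% of UMIs, and 2.55 and 4.02% of cells were among the top 6% of the library by doublet score. What these shifts contribute to the levels of the 7 genes was not tested beyond the values given.

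In the small intestine the same clustering set apart 39 of 1109 SEMFs, of which 97.4% were among the top 6% of cells by doublet score and whose median depth was 11189 UMIs against 5391. Lymphatic endothelial markers summed to 429 CPM in these cells against 28.1 CPM in the remainder, and trophocyte markers to 565 against 70.5 CPM. Between these parts Ednrb was the only one of the 6 genes with UMIs in both that was over 2-fold apart, at 229 against 701 CPM, where 2.86% of 8109 other genes were over 2-fold higher and 4.9% over 2-fold lower. Without the cells of highest doublet score, an alternative added after the data had been seen, the clustering was repeated. It divided the small intestinal SEMFs into parts of 501 and 555 cells with median depths of 4390 and 6468 UMIs. The silhouette, which is higher for better separated parts, was 0.142 for these parts against 0.334 for those of the colon. K-means returns 2 parts in any case, so these parts were weakly separated. Sox6 was at 2625 and 4287 CPM, Ednrb at 501 and 842 CPM, Glp2r at 6.72 and 16.3 CPM and Procr at 131 and 130 CPM in these parts. F3 was at 335 and 232 CPM. The values of Glp2r rested on 16 and 59 UMIs, and Ptprr and Plau had 14 and 17 UMIs in all. Sox6, Ednrb and Glp2r were thus high in the same small intestinal part, whereas in the colon Sox6 was high in the part where Ednrb and Glp2r were low. From cell to cell in small intestinal SEMFs, the r of Sox6 with Ednrb was 0.061, or -0.016 when thinned to 3000 UMIs. The difference between the tissues in which genes shared a part was not tested.

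**Figure D4:**
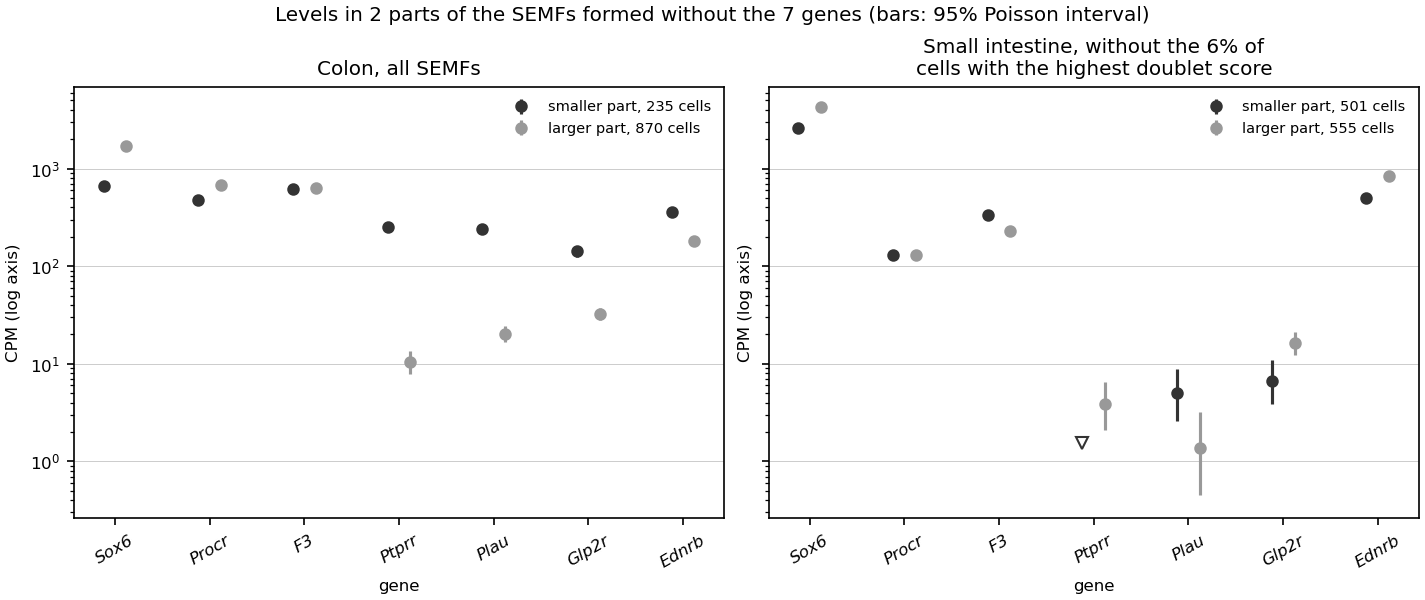
CPM (vertical log axis) of the 7 genes in the smaller (black) and larger (grey) part of the SEMFs after clustering without these genes, with exact Poisson 95% intervals and an open triangle at the upper limit where no UMI was counted. In the colon (left, 235 and 870 cells) Ptprr stands at 255 and 10.4 CPM and Sox6 at 656 and 1713 CPM, and in the small intestine without cells of highest doublet score (right, 501 and 555 cells) Sox6, Glp2r and Ednrb are all higher in the larger part.

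The genes that lay along the same axis in colon SEMFs were ranked by their mean r with Ptprr, Plau, Glp2r and Ednrb minus their mean r with Sox6 and Procr, over 6511 genes with a UMI in at least 10% of SEMFs of each tissue. In the colon 7.26% of genes had a difference of 0.1 or higher and 12.3% one of -0.1 or lower, against 2.00% and 2.84% in the small intestine. Small intestinal SEMFs had a Ptprr UMI in 3 cells and a Plau UMI in 16, and both genes enter the mean. The small intestinal differences here and below are thus less able to register such an axis, and its absence there was not shown. The lowest differences, on the side of Sox6 and Procr, were those of Cxcl12, a chemokine (-0.716), Lama2, a laminin chain (-0.694), Tagln, an actin-binding protein of smooth muscle (-0.651), Gnai1 (-0.619), Chsy3 (-0.609), Ogn (-0.598), smooth muscle actin Acta2 (-0.597) and Bnc2 (-0.578). A low difference does not by itself place a gene with Procr, since the mean can rest on Sox6 alone. Chsy3 had a mean r of 0.291 with Sox6 and Procr and an r of 0.572 with Sox6. The highest, on the side of the 4 genes, were Tmem176a (0.647), Tmem176b (0.643), the angiotensin precursor Agt (0.642), the ErbB ligand Nrg1 (0.590), the ferritin chain Fth1 (0.560), the prostaglandin synthase Ptgs2 (0.546), Rgs10 (0.540) and the matrix protein tenascin, Tnc (0.518). The same differences in the small intestine ran from -0.245 for Lama2 to 0.105 for Fth1, and only Lama2, Gnai1 (-0.1004), Bnc2 (-0.114) and Fth1 were at 0.1 or beyond. Cxcl12 had -0.029 there, Tagln 0.020 and Acta2 0.082. Of the 473 genes at 0.1 or higher in the colon 44 were so in the small intestine (where 130 genes were in all), and of the 798 at -0.1 or lower 103 (of 185).

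Lists of genes were counted on the same scale, for pathways around the 7, SEMF signals, contractile genes and immediate early and heat shock genes. They held 53 genes with a UMI in at least 10% of colon SEMFs and 46 in the small intestine. In the colon 27 were at 0.1 or higher and 12 at -0.1 or lower, and in the small intestine 0 and 3. Of the 6511 genes ranked above, 7.26% and 12.3% were so in the colon. The 27 included 11 immediate early and heat shock genes and 9 SEMF signals. The 12 included 4 SEMF signals and 3 contractile genes. Among the genes of plasminogen activation and coagulation, the tissue plasminogen activator Plat (0.216) and the thrombin receptor F2r (0.295) were on the side of Plau in the colon. Thbd (-0.576), which encodes thrombomodulin, and Lrp1 (-0.185) were on the opposite side. The mean r of Thbd with Sox6 and Procr was 0.244, and its r with Sox6 alone was 0.395. For Lrp1 these values were 0.077 and 0.157, so its mean r came from Sox6 and not from Procr. Of 3 endothelin genes, the converting enzyme Ece1 was at 0.161, the ligand Edn3 at -0.236 and the A receptor Ednra at -0.323. Ednra had a difference of -0.151 in the small intestine, a call at -0.1 that was lost with every cell thinned to 3000 UMIs, when 0 listed genes had it, and it had an r with Sox6 of 0.293 in the colon and 0.274 in the small intestine. Genes named here from the lists, other than Ednra, Egr1 and those already ranked above, were chosen after their values were seen.

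Secreted signals of SEMFs lay on both sides, with 9 of 15 genes at 0.1 or higher and 4 of 15 at -0.1 or lower in the colon. On the side of Ptprr, Plau, Glp2r and Ednrb were the BMP ligand Bmp2 (0.374), the Wnt ligands Wnt4 (0.353), Wnt5a (0.220) and Wnt5b (0.287), the growth factor Fgf7 (0.603), the Wnt antagonist Sfrp1 (0.169) and the matrix proteins Postn (0.535), Tnc and Tgfbi (0.512). On the side of Sox6 were Bmp3 (-0.530), Fgf10 (-0.171), Bmp5 (-0.139) and Bmp4 (-0.123). Among small intestinal SEMFs 0 of the 10 such genes with a UMI in at least 10% of cells reached 0.1 in either direction. Among genes linked to GLP-2 action, Vegfa (0.403) and Igf1 (-0.151) were on opposite sides in the colon. All 3 contractile genes were at -0.1 or lower in the colon (median -0.597) and 0 of 3 in the small intestine. All 11 immediate early and heat shock genes were at 0.1 or higher in the colon (median 0.378), and in the small intestine 1 of 10 was at -0.1 or lower, Egr1 (-0.107, against 0.448 in the colon), a call also lost when thinned.

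**Figure D5:**
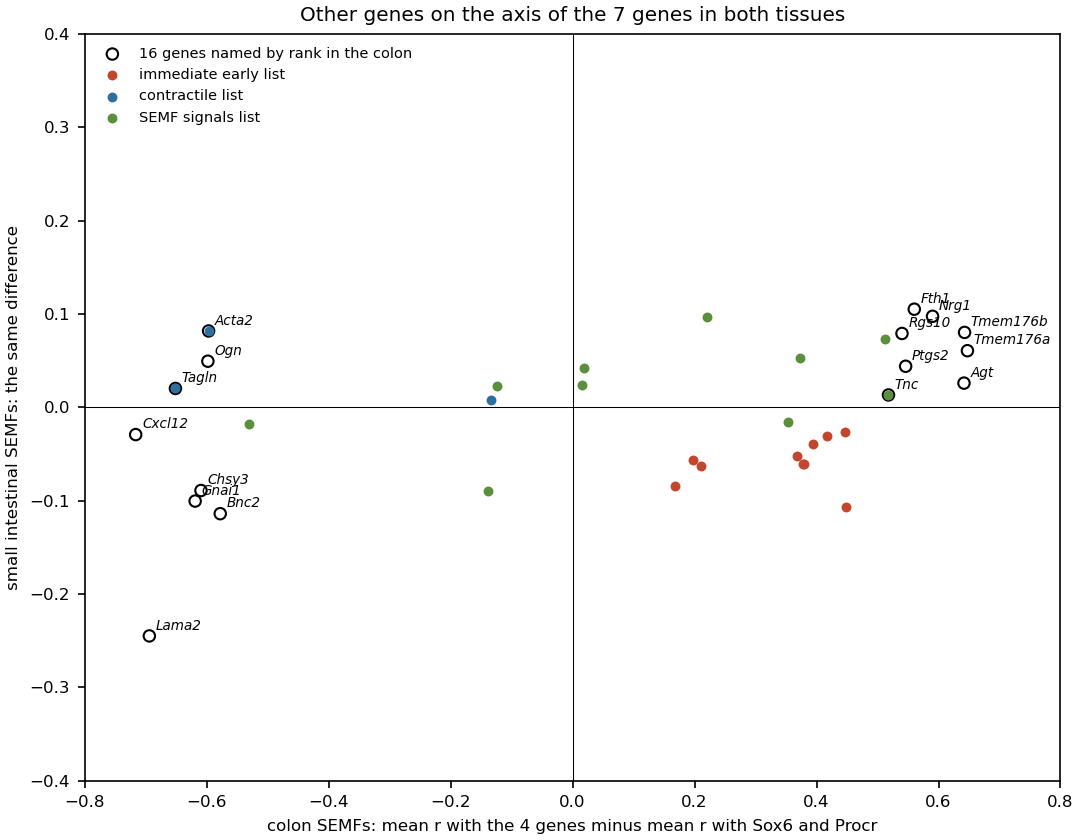
Mean r with Ptprr, Plau, Glp2r and Ednrb minus mean r with Sox6 and Procr across colon SEMFs (horizontal) and small intestinal SEMFs (vertical, a narrower scale), for the 16 genes of highest and lowest rank in the colon (open circles, named) and the genes of 3 lists with a UMI in at least 10% of SEMFs of each tissue (filled points). Values run from -0.716 to 0.647 in the colon and from -0.245 to 0.105 in the small intestine.

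Over the 12 combinations of type and tissue, the genes whose log2 level was most like each of the 7 were found among 11861 genes, with r over 12 points that share 2 libraries. Sox6 was most like Bmp3 (0.968), Nrg2 (0.966) and Bpgm (0.965), and F3 most like Wnt5a (0.947), Akr1b8 (0.945) and Nbl1 (0.941). Ptprr, high in BECs, was most like Prdm1 (0.973), Tspan8 (0.928) and Lrrc8c (0.927). Glp2r was most like Cntnap5a (0.944), Gm16287 (0.937) and Prrg4 (0.935), and Ednrb most like Capzb (0.953), Yaf2 (0.948) and Vps72 (0.947). The nearest genes were less alike for Procr (Ano2 0.917, Plekha7 0.913 and Camta1 0.886) and Plau (Zfp91 0.888, Clta 0.852 and Ywhag 0.850). No gene of the set was among the 3 nearest of another.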

How the data were processed

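Droplet 3′ libraries of sorted stromal cells were used, 1 per tissue. Per the submitters' processing notes, Cell Ranger 7.1.0, Seurat 4 and the build mm10 were used; whether intronic reads were counted is not given in the sources used here. The authors deposited raw UMI counts per gene and cell, which gave all values, and natural log values, of which 42126 (colon) and 65513 (small intestine) were compared and equalled the natural log of 1 plus UMIs times 10000 over the UMIs of the cell (tolerance 1e-06). The authors' deposited cell labels were used, with colon capillary, arterial and venous endothelium pooled as BECs. The 7 genes and all lists were chosen with earlier results of these data known.

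UMIs were summed per type (Poisson and, for ratios, conditional binomial 95% intervals; in ratios a count of 0 was set to 3 UMIs). No p-value was computed, as cells of 1 library are not replicates. Clustering used scikit-learn 1.9.0 (10 components, fixed seed) and doublet scores the Scrublet of scanpy 1.11.5, which marked 1 colon cell (0.0166%, so the call was not usable) and 85 small intestinal cells (0.908%); no cell was removed from the main values. The named genes are the 7, the 3 nearest to each by level, and the 8 highest and 8 lowest by correlation, and the listed genes whose difference in mean r was at least 0.1 from 0 in both tissues (Ednra and Egr1); other listed genes were named after their values were seen. The value of 1 listed gene is not reported here. Intervals and correlations were tested on simulated data. Alternatives changed weighting, depth, totals, doublets, cells by sex-linked genes, the correlation measure and the clustering.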

Additional observations from a re-analysis of the deposited data

Results flagged for a closer look

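Some of the genes changed direction between tissues according to cell type, beyond the counting intervals; the differences between types were not tested. For Sox6 the log2 ratio of colon to small intestine was -1.27 in SEMFs, but 1.43 in CD81- FBs and 2.13 in SMCs. The colon values of Sox6 in those types rest on 655 UMIs in CD81- FBs and 87 UMIs in 18 of 125 SMCs, where 1 cell held 26 UMIs. The SMC label also covered unlike cells in the 2 tissues. CD81- fibroblast markers summed to 1959 CPM in colon SMCs and 10902 CPM in small intestinal SMCs, and smooth muscle markers to 22182 and 14808 CPM. The part of this in the Sox6 ratio was not tested. For Procr the log2 ratio was 2.33 in SEMFs, 1.02 in CD81+ trophocytes and 2.07 in LECs, but -4.05 in BECs, where the colon had 53 cells and 4 Procr UMIs and the small intestine 524 cells and 538 UMIs.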

How the results depend on the processing

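No paired analysis was possible because each tissue has 1 library, and for the same reason no library could be left out. Of 90 alternative values of the summary results 84 stayed within the limit (an r within 0.1, a count within 1.5 times) and 6 moved. Scored only as having a UMI or not, the colon median r of the 8 pairs of Sox6 and Procr with the 4 genes went from -0.0995 to 0.00265 and that of Sox6 alone from -0.273 to -0.139. With every cell thinned to 3000 UMIs, the median r among the 4 genes in the colon was 0.164 in place of 0.293, and 0 in place of 3 listed small intestinal genes were at -0.1 or lower. In the small intestine 1 gene (Ednrb) was over 2-fold apart between the clustered parts. With 2000 genes and 20 components this call was lost (1.29-fold), as it was without the cells of highest doublet score (log2 -0.75), and 2 other genes were over 2-fold apart under both, Glp2r and Plau, the latter on 19 and 17 UMIs in all. In the colon 4 genes were, and 4 or 5 under the alternatives. The r of Ptprr with Glp2r in the small intestine reversed from 0.165 to -0.0076 when thinned. No tissue ratio of the 7 genes in SEMFs changed direction. Low counts limit Ptprr and Plau in small intestinal SEMFs, with 14 and 19 UMIs.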
